A study of Homo sapiens with 2 samples.

Results

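The miR-15/16 family and the cluster of miR-424 and miR-503 were followed through 10 mature microRNAs, chosen by name from the 2656 listed in 1 deposited table of counts. They are the 5p strands hsa-miR-15a-5p, hsa-miR-15b-5p, hsa-miR-16-5p, hsa-miR-195-5p, hsa-miR-497-5p, hsa-miR-424-5p and hsa-miR-503-5p, and the 3p strands hsa-miR-15b-3p, hsa-miR-16-2-3p and hsa-miR-424-3p. All 10 were counted in both libraries, and 7 of them passed an abundance limit that 191 microRNAs met, a mean of at least 50 counts per 1000000 (CPM) and at least 100 counts over both libraries. Both libraries were made from cultures of MDA-MB-231, a human cell line of triple-negative breast cancer, grown in serum-containing medium. One line carried the short hairpin RNA shELOVL5, aimed at the fatty acid elongase ELOVL5, and the other the control hairpin shLuc. Both arms therefore carried a hairpin RNA, there was 1 library of each, and the labels do not say whether the cells were clones or pools. The small RNA table does not measure the ELOVL5 transcript, so the knockdown itself could not be checked. The extraction text of the labels speaks of tumor material, while all other labels describe the cultured line.

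A microRNA hairpin is cut to a short duplex, and 1 strand of it is loaded into an Argonaute protein, where bases 2 to 8, the seed, choose the messenger RNAs to be repressed. The 5p strands of the miR-15/16 family are known to repress D- and E-type cyclins, cell-cycle kinases and the survival protein BCL2, and the pair of miR-15a and miR-16-1 is often deleted in chronic lymphocytic leukaemia. The pair of miR-424 and miR-503 is known to slow the cell cycle through CDC25A and cyclins, and takes part in mammary gland regression after lactation. miR-195 and miR-497 form a further pair that is often low in carcinomas.

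All 10 members matched a RefSeq mature sequence (GRCh38.p14). They are shown because the seed, in capitals, sorts them into groups. The following 6 strands share the seed AGCAGCA.
hsa-miR-16-5p: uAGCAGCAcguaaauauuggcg
hsa-miR-15a-5p: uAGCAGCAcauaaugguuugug
hsa-miR-15b-5p: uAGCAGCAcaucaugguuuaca
hsa-miR-195-5p: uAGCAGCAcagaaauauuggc
hsa-miR-497-5p: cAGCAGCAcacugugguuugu
hsa-miR-424-5p: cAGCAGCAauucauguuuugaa
hsa-miR-503-5p differs from them in the last seed base, A8G against hsa-miR-424-5p, with positions counted from the 5′ end of the mature strand.
hsa-miR-503-5p: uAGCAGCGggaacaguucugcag
The 3p strands carry seeds that differ from these and from each other.
hsa-miR-424-3p: cAAAACGUgaggcgcugcuau
hsa-miR-16-2-3p: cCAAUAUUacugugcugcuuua
hsa-miR-15b-3p: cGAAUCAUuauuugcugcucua

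Of the 7 listed 5p strands, 5 begin with U, the first base that Argonaute proteins are known to favour, and the strands of miR-497 and miR-424 begin with C. The listed 3p strands all begin with C, so 5 of the 10 members begin with U. Among the 174 microRNAs above the limit with a RefSeq sequence, of either arm, 49.4% begin with U. The 3p strands lie opposite the seed in the hairpin. hsa-miR-15b-3p and hsa-miR-16-2-3p hold the whole seed complement UGCUGCU (searched on the mature strand only), starting at base 13 of each, and hsa-miR-424-3p holds 6 of its bases. The whole run occurs in 10 of 2367 sequence-matched microRNAs of the table (0.422%) and in 3 of the 174 above the limit (1.72%). Both counts include hsa-miR-15b-3p and hsa-miR-16-2-3p. Within the seed group, hsa-miR-195-5p differs from hsa-miR-16-5p at 2 of 21 positions (G10A and U11G), and hsa-miR-15b-5p from hsa-miR-15a-5p at 4 of 22 (A12C, G20A, U21C and G22A). How reads that fit several microRNAs were assigned is not given in the sources used here, so the rarer member of each of these pairs is uncertain.

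The hairpins lie in 4 pairs. MIR15B (chromosome 3, 160404588 to 160404685, plus strand) and MIR16-2 (160404745 to 160404825) are separated by 59 bases within an intron of SMC4, a condensin subunit gene. MIR16-1 (chromosome 13, 50048973 to 50049061, minus strand) lies in an intron of the non-coding gene DLEU2, 57 bases from MIR15A (50049119 to 50049201), which overlaps an annotated DLEU2 exon. MIR195 (chromosome 17, 7017615 to 7017701, minus strand) and MIR497 (7017911 to 7018022) overlap exons of MIR497HG. On chromosome X, MIR503 (134546328 to 134546398, minus strand) lies in an intron and MIR424 (134546614 to 134546711) in an exon of MIR503HG, 215 bases apart. Gene positions are from RefSeq (GRCh38.p14), hosts are from GENCODE release 29 on GRCh38, and the deposited table holds no coordinates.

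The shELOVL5 library held 6811811 microRNA counts and the shLuc library 7109272. The 10 members took 32684 and 33078 of them, 0.480% and 0.465%. Levels are given in CPM scaled by the trimmed mean of M-values (TMM), which sets the bulk of microRNAs level between libraries. Ratios set shELOVL5 over shLuc, and their 95% intervals come from exact binomial (Clopper-Pearson) limits on how a microRNA's counts divide between the libraries. With 1 library per condition there is no replicate check and no p-value. The intervals cover counting error only, not the variation between cultures, and are not adjusted for the number of microRNAs compared.

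No member differed by 2-fold. Of the 191 microRNAs above the limit, 1.57% were at least 2-fold and 3.66% at least 1.5-fold different, and 0 of the 7 members above the limit reached either size. Their log2 ratios ran from -0.27 for hsa-miR-424-3p to 0.22 for hsa-miR-16-5p, with a median of 0.023, beside a median of -0.033 and quartiles of -0.18 and 0.17 over all 191. Of the 7, 2 had an interval above 1, where 31.9% of the 191 did, and 2 had one below 1, where 41.9% did. An interval away from 1 is common at this depth, so these counts are given as values of the members and not as a result that sets them apart.

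hsa-miR-16-5p, the most abundant member and number 55 of the table by mean CPM, had 11386 counts (1651 CPM) in shELOVL5 and 9951 (1417 CPM) in shLuc. It was the higher in shELOVL5, at a ratio of 1.16 (1.13 to 1.20). In bulk cultures a change in the share of cells and a change per cell cannot be told apart. Of the 191 microRNAs above the limit, 38 including itself had a ratio at least as high. The table lists it under both of its hairpins, with 11386 and 11290 counts in shELOVL5 and 9951 and 9877 in shLuc. These copies differed by 0.843% and 0.744%, and the higher row was kept.

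hsa-miR-15b-5p, cut from the hairpin next to mir-16-2, had 3350 counts (485.7 CPM) in shELOVL5 and 3436 (489.4 CPM) in shLuc. Its ratio was 0.993 (0.946 to 1.04), so counting error leaves room for a difference of a few percent in either direction. hsa-miR-424-5p had 750 counts (109 CPM) and 703 (100.1 CPM), a ratio of 1.09 (0.979 to 1.21). For both strands the libraries were not separated beyond counting error.

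The other members with this seed lay below the abundance limit in the mean of both libraries. hsa-miR-15a-5p, the chromosome 13 partner of miR-16-1, had 325 counts (47.1 CPM) in shELOVL5 and 293 (41.7 CPM) in shLuc, a ratio of 1.13 (0.961 to 1.33). hsa-miR-195-5p stood at 108 and 107 counts (15.7 and 15.2 CPM), a ratio of 1.03 (0.779 to 1.36). For hsa-miR-497-5p the counts were 59 and 64 (8.55 and 9.12 CPM), with a ratio of 0.938 (0.648 to 1.36). The intervals of all 3 include 1, and those of hsa-miR-195-5p and hsa-miR-497-5p are the widest of the family.

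**Figure D1:**
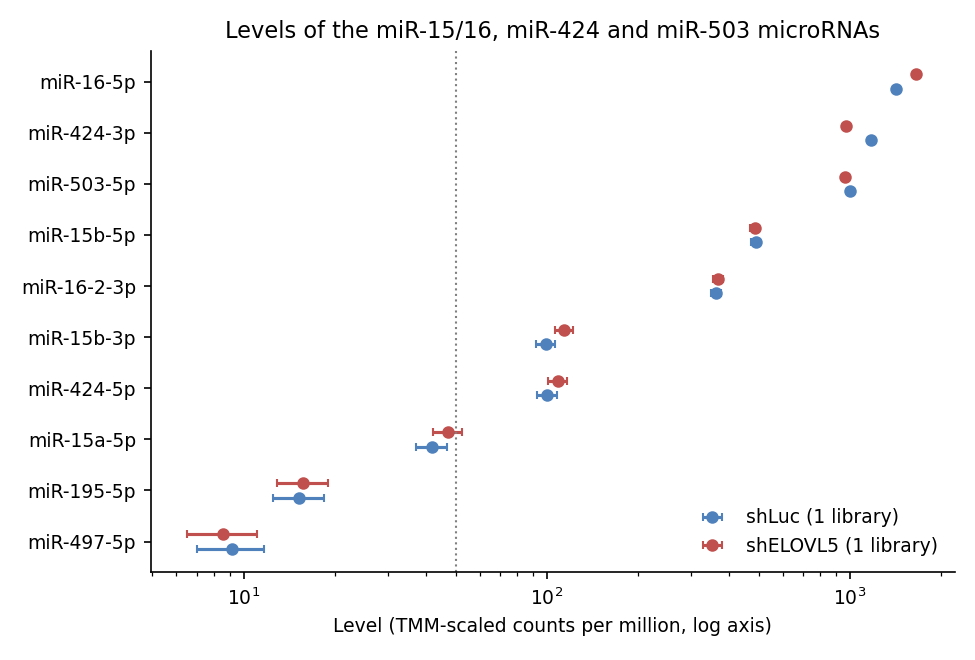
Level of each member in TMM-scaled CPM (x axis, logarithmic), 1 library per condition, with 95% counting intervals that are narrower than the points for the most abundant strands. The dotted line marks 50 CPM. hsa-miR-16-5p is highest in both libraries, from 1417 to 1651 CPM, and hsa-miR-497-5p lowest, from 8.55 to 9.12 CPM.

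Strands with the same seed can read the same sites, so the counts of the 6 strands with the seed AGCAGCA were added. The sum was 15978 counts (2317 CPM) in shELOVL5 and 14554 (2073 CPM) in shLuc, a ratio of 1.12 (1.09 to 1.14). The higher sum came from hsa-miR-16-5p: the other 5 strands together summed to 4592 and 4603 counts, at a ratio of 1.02 (0.975 to 1.06). hsa-miR-16-5p made up 71.3% of the seed group in shELOVL5 (70.6 to 72.0%) and 68.4% in shLuc (67.6 to 69.1%). hsa-miR-15b-5p was next, with 21.0% (20.3 to 21.6%) and 23.6% (22.9 to 24.3%). The remaining 4 strands took less than hsa-miR-15b-5p did: hsa-miR-424-5p held 4.69% and 4.83%, hsa-miR-15a-5p 2.03% and 2.01%, hsa-miR-195-5p 0.676% and 0.735%, and hsa-miR-497-5p 0.369% and 0.440%. The only other sequence-matched microRNA of the table with this seed, hsa-miR-6838-5p, had 3 counts in shLuc and 0 in shELOVL5, which allows up to 3 counts (0.435 CPM).

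The pair of abundant 5p strands was therefore compared directly, since a ratio within a library does not depend on scaling. There were 3.40 counts of hsa-miR-16-5p for each count of hsa-miR-15b-5p in shELOVL5 and 2.90 in shLuc. The ratio of these ratios was 1.17 (exact conditional interval 1.11 to 1.24). For hsa-miR-16-5p against hsa-miR-15a-5p it was 1.03 (0.876 to 1.21), against hsa-miR-424-5p 1.07 (0.963 to 1.19) and against hsa-miR-195-5p 1.13 (0.858 to 1.497), all with intervals that include 1. hsa-miR-15b-5p against hsa-miR-15a-5p stood at 0.879 (0.743 to 1.04). Over the 11 pairs of members and hairpin arms compared, 5 intervals excluded 1 and 6 did not, with no adjustment for their number. Several pairs reuse the counts of 1 strand, and those of mir-424 and mir-15b are the arm comparisons given below. No share over pairs of other microRNAs was computed. For the arms of 192 hairpins of the whole table the share was 28.6%, and nothing is read from this count of pairs.

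The 2 hairpins that give hsa-miR-16-5p can be told apart by their 3p strands. Both hairpins are shown with the mature strands in capitals.
MIR16-2: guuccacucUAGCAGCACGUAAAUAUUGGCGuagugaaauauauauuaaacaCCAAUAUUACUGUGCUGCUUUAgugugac
MIR16-1: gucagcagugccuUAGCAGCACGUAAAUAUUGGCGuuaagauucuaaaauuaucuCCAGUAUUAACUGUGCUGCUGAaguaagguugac
hsa-miR-16-2-3p, from chromosome 3, had 2537 counts (368 CPM) in shELOVL5 and 2542 (362 CPM) in shLuc, a ratio of 1.02 (0.961 to 1.07). hsa-miR-16-1-3p, from chromosome 13, had 35 and 36 counts. The chromosome 3 strand was thus 72.5 times as frequent as the chromosome 13 strand in shELOVL5 and 70.6 times in shLuc, and the ratio of these ratios was 1.03 (0.624 to 1.69). How far the 3p counts follow the output of each locus was not tested, so these figures do not divide the hsa-miR-16-5p counts between the loci. hsa-miR-16-2-3p shares the seed CAAUAUU with hsa-miR-195-3p, which had 65 and 67 counts, and their first 8 bases are identical.

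The strands of the chromosome 3 pair did not keep 1 ratio between the libraries. hsa-miR-15b-3p had 788 counts (114 CPM) in shELOVL5 and 696 (99.1 CPM) in shLuc and was the higher in shELOVL5, at a ratio of 1.15 (1.04 to 1.28). Its share of the mir-15b hairpin was 19.0% (17.9 to 20.3%) in shELOVL5 and 16.8% (15.7 to 18.0%) in shLuc, an odds ratio of 1.16 (1.04 to 1.30). On mir-16-2 the 3p share went the other way, with 18.2% (17.6 to 18.9%) and 20.3% (19.6 to 21.1%), an odds ratio of 0.872 (0.820 to 0.928). hsa-miR-16-5p comes from both loci and its whole count was used here. Between the 3p strands alone, hsa-miR-16-2-3p against hsa-miR-15b-3p stood at 3.22 in shELOVL5 and 3.65 in shLuc, a ratio of ratios of 0.882 (0.784 to 0.991).

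The hairpin of miR-424 gave mainly 3p counts, while its 5p strand carries the family's seed. Both strands are in capitals, and letters after the 3p strand belong to the annotated hairpin.
MIR424: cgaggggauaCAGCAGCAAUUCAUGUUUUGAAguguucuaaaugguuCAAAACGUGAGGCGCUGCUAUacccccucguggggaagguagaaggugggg
hsa-miR-424-3p had 6711 counts (973 CPM) in shELOVL5 and 8231 (1172 CPM) in shLuc. It was 1.20-fold lower in shELOVL5 (1.17 to 1.24), the largest departure from 1 among the 10 members, and 28 of the 191 microRNAs above the limit, itself included, had a ratio as low or lower. For each 5p count there were 8.95 3p counts in shELOVL5 and 11.7 in shLuc. The 3p strand thus held 89.9% of the hairpin's counts (89.2 to 90.6%) and 92.1% (91.6 to 92.7%), an odds ratio of 0.764 (0.685 to 0.853).

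hsa-miR-503-5p, from the neighbouring hairpin, had 6670 counts (967 CPM) in shELOVL5 and 7055 (1005 CPM) in shLuc. Its ratio was 0.962 (0.931 to 0.995), an interval that just excludes 1 and that includes 1 under total count scaling. Its hairpin gave almost only 5p counts, with 35 and 44 counts of hsa-miR-503-3p, 0.522% (0.364 to 0.725%) and 0.620% (0.451 to 0.831%). Against hsa-miR-424-5p, hsa-miR-503-5p stood at 8.89 in shELOVL5 and 10.04 in shLuc, a ratio of ratios of 0.886 (0.794 to 0.989). Relative to hsa-miR-424-5p, both abundant strands of this cluster were thus lower in shELOVL5. Both comparisons rest on the same 750 and 703 counts of hsa-miR-424-5p, so they are not independent of each other.

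**Figure D2:**
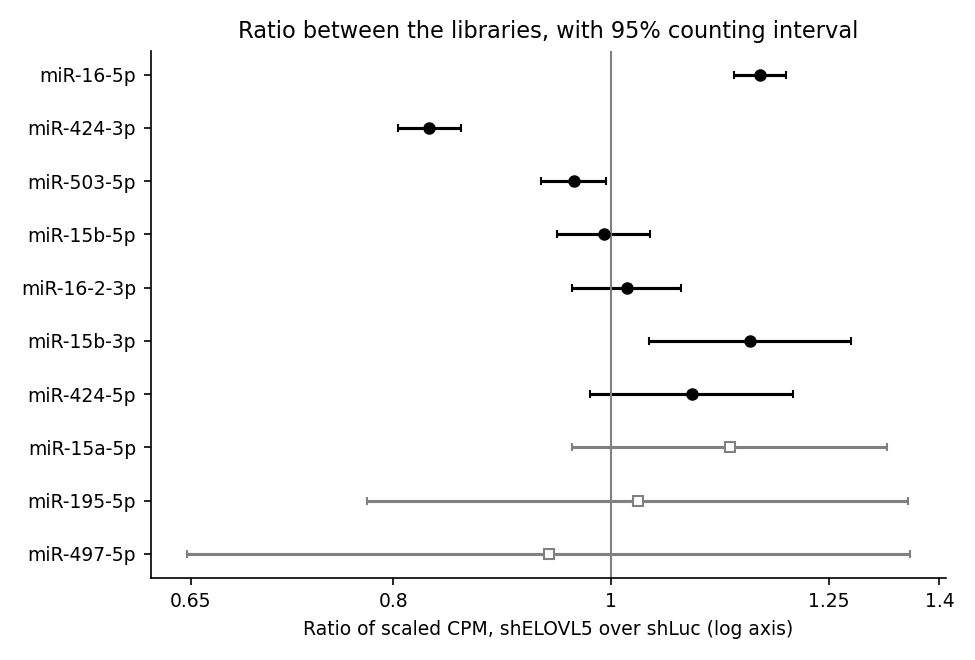
Ratio of scaled CPM, shELOVL5 over shLuc (x axis, logarithmic), for each member in order of abundance, with 95% counting intervals. Filled points passed the abundance limit and open squares did not. hsa-miR-16-5p at 1.16 and hsa-miR-15b-3p at 1.15 lie right of 1, hsa-miR-424-3p at 0.830 lies farthest left, and the intervals of 6 of the 10 include 1.

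The neighbours of miR-424 and miR-503 on the X chromosome were less frequent and gave no interval away from 1. hsa-miR-450a-5p, the only one of 7 above the abundance limit, stood at 484 and 459 counts, with an interval of 0.943 to 1.22 for the ratio. hsa-miR-450b-5p had 225 and 235 counts, with an interval of 0.808 to 1.18, and hsa-miR-542-3p 139 and 162 counts, with an interval of 0.691 to 1.102. hsa-miR-450a-2-3p (41 and 35 counts), hsa-miR-450a-1-3p (7 and 12) and hsa-miR-542-5p (9 and 9) were rarer, and hsa-miR-450b-3p was at 0 in each, for an upper limit of 3 counts, or 0.435 CPM (shELOVL5) and 0.427 CPM (shLuc). Summed, the 7 neighbours had 905 and 912 counts, or 131 and 129.9 CPM, beside 973 and 1172 CPM for hsa-miR-424-3p alone.

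Among hairpins with counts on both arms, 6 of the 8 hairpins of these loci could be examined. The hairpins mir-15a and mir-497 could not, since their 3p strands had 1 and 0 counts in shELOVL5 and 0 and 0 in shLuc. mir-195 had the most even arms, with 37.6% of counts on 3p in shELOVL5 (30.3 to 45.2%) and 38.5% in shLuc (31.2 to 46.2%), an odds ratio of 0.961 (0.609 to 1.52). mir-16-1 had 0.306% and 0.360% on 3p, an odds ratio of 0.850 (0.518 to 1.39). Over 192 hairpins of the whole table with at least 100 counts and both arms counted in both libraries, 28.6% had an odds ratio whose interval excluded 1, beside 3 of these 6 (mir-15b, mir-16-2 and mir-424). Those 3 had at least 696 counts on the minor arm in each library and the other 3 at most 67, so their intervals are narrower. In 77 of the 192 the 3p arm was the more abundant in both libraries, as it was in mir-424, and in 113 the 5p arm was. An odds ratio as low as that of mir-424 or lower was found in 34 of the 192, itself included, and one as high as that of mir-15b or higher in 64. Some of the 192 share mature strands, and each then uses the whole count of the shared strand. The 192 are therefore not independent of each other.

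**Figure D3:**
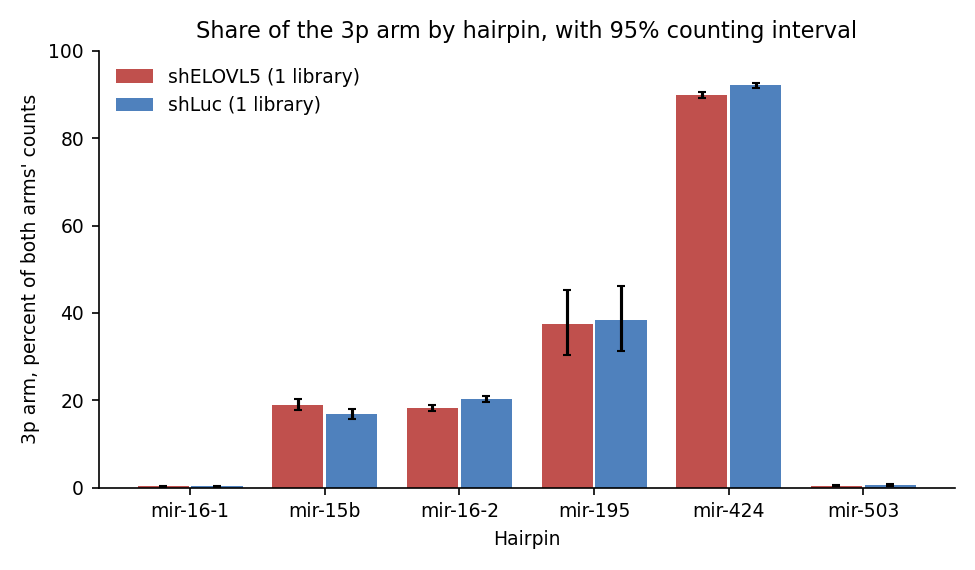
Share of the 3p arm in the counts of both arms (y axis, percent) for the 6 hairpins with counts on both arms, in shELOVL5 and shLuc, 1 library each, with exact binomial 95% intervals. mir-424 stands apart at 89.9% and 92.1%, mir-195 lies between 37.6% and 38.5%, mir-15b and mir-16-2 lie between 16.8% and 20.3% and move in opposite directions, and mir-16-1 and mir-503 lie below 1%.

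The order of the members by counts was nearly the same in both libraries: hsa-miR-16-5p, hsa-miR-424-3p, hsa-miR-503-5p, hsa-miR-15b-5p, hsa-miR-16-2-3p, then hsa-miR-15b-3p with hsa-miR-424-5p, and hsa-miR-15a-5p, hsa-miR-195-5p and hsa-miR-497-5p. hsa-miR-15b-3p and hsa-miR-424-5p exchanged places, and neither library separated them, at 1.05-fold in shELOVL5 (0.949 to 1.16) and 1.01-fold in the other order in shLuc (0.908 to 1.12). hsa-miR-424-3p and hsa-miR-503-5p were level in shELOVL5, at 1.01 (0.972 to 1.04), while in shLuc hsa-miR-424-3p was 1.17-fold higher (1.13 to 1.20). All other neighbours in this order were separated beyond counting error in both libraries. Adapter ligation is known to recover short RNAs unequally, so these are orders of counts, not of molecules.

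**Figure D4:**
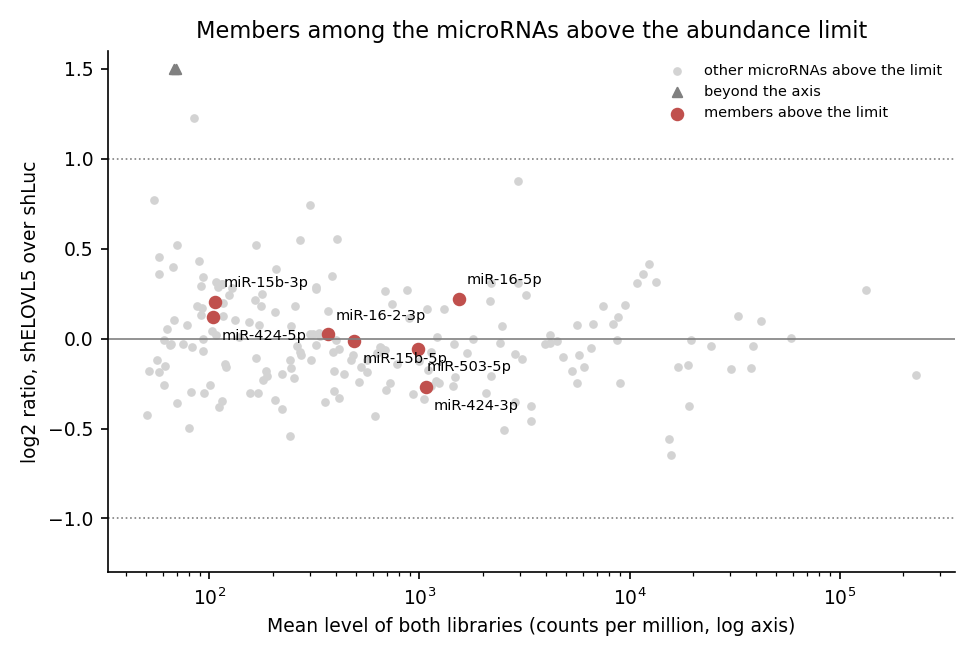
Log2 ratio of shELOVL5 over shLuc (y axis) against the mean unscaled CPM of both libraries (x axis, logarithmic) for the 191 microRNAs above the abundance limit, with the 7 members in red and dotted lines at 2-fold. Triangles at the upper edge mark microRNAs beyond the axis. The members lie between -0.27 and 0.22, inside the range of the other microRNAs of like abundance.

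Other microRNAs of the cell cycle were read from lists drawn up for this comparison. Of 17 known to repress activators of the G1 to S transition, 9 were above the limit, 5 with an interval above 1 and 4 below, where 31.9% and 41.9% of all 191 had such intervals. Their median log2 ratio was 0.100 beside -0.033 over all 191. The most abundant were hsa-let-7a-5p (302713 and 287560 counts, interval 1.07 to 1.08), hsa-miR-26a-5p (197846 and 226134, interval 0.885 to 0.896) and hsa-miR-24-3p (123792 and 139433, interval 0.897 to 0.911). Of 9 known to repress inhibitors of cyclin-dependent kinases, 8 were above the limit, 4 with an interval above 1 and 4 below, beside the same shares of 31.9% and 41.9%, with a median of 0.101. Calls in both directions are thus common among all abundant microRNAs, and nothing is read from these counts. hsa-miR-221-3p (263353 and 275675 counts, interval 0.967 to 0.978), hsa-miR-222-3p (247715 and 282222, interval 0.889 to 0.898) and hsa-miR-25-3p (39659 and 45008, interval 0.885 to 0.909) were its most abundant members. None of the 9 and 8 above the limit was 2-fold different.

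The first list includes hsa-miR-103a-3p and hsa-miR-107, whose strands begin on the first base of the miR-15/16 seed, so that the shared letters sit 1 position earlier and their own seed is GCAGCAU.
hsa-miR-103a-3p: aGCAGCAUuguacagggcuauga
hsa-miR-107: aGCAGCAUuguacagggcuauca
hsa-miR-103a-3p had 69697 counts in shELOVL5 and 62275 in shLuc, a ratio of 1.14 (1.13 to 1.15). For hsa-miR-107 the counts were 7869 and 7158, with a ratio of 1.12 (1.08 to 1.16). Both had an interval above 1, as 31.9% of the 191 microRNAs above the limit did. The near-identical sequences of hsa-miR-103a-3p and hsa-miR-107 mean that they may share reads.

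Markers of the labelled line and of other cells were also read. The 5 microRNAs listed as high in mesenchymal-like breast cancer lines were all above the limit. In sum they had 308444 CPM in shELOVL5 and 341969 CPM in shLuc, led by hsa-miR-100-5p, hsa-miR-221-3p and hsa-miR-222-3p. These 3 had intervals below 1 and the other 2 had intervals above 1, beside 41.9% and 31.9% of the 191, so the list went both ways. The 5 microRNAs of epithelial or luminal breast cells summed to 303 and 248 CPM. Of these, hsa-miR-200b-3p (1626 and 1265 counts, interval 1.22 to 1.41 for the ratio) and hsa-miR-200c-3p (450 and 467, interval 0.860 to 1.12) were above the abundance limit, so the epithelial markers were low beside the mesenchymal-like ones but not absent. The other 3, hsa-miR-141-3p, hsa-miR-205-5p and hsa-miR-375-3p, had at most 7 counts in either library. miR-16 is abundant in blood cells, so 7 blood cell microRNAs were read beside it. Their sum was 2282 counts in shELOVL5 and 2798 in shLuc, nearly all from hsa-miR-486-5p with 2146 and 2788. hsa-miR-144-3p and hsa-miR-223-3p had 0 counts in both libraries, hsa-miR-150-5p 1 and 0, and hsa-miR-451a, the main microRNA of red cells, 6 and 2. hsa-miR-486-5p, the only 1 of the 7 above the abundance limit, was lower in shELOVL5, at a ratio of 0.784 (0.740 to 0.829). hsa-miR-142-5p (84 and 6) and hsa-miR-142-3p (45 and 2), below the limit and named after their values were seen, were higher in shELOVL5. The list thus went both ways, and whether its members bear on the level of hsa-miR-16-5p was not tested.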

How the data were processed

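The authors deposited unnormalized read counts, 1 line for each pair of precursor and mature microRNA, for 1 shELOVL5 and 1 shLuc library of MDA-MB-231 cells. Per the submitters' processing notes, FastQC 0.11.9, cutadapt 2.10 and Bowtie 1.1.1 were used. Their settings, the counting program, the annotation release and the handling of reads with several matches were not given in the sources used here, and no molecular identifiers are described. Of the 2886 lines, the highest per mature microRNA and library was kept, and 2656 microRNAs remained, with 6811811 counts in shELOVL5 and 7109272 in shLuc. Counts were scaled with TMM factors (1.01 and 0.988) from edgeR 4.0.16 in R 4.3.3. Intervals (95%, exact binomial, or exact conditional for 2 by 2 counts) were computed with scipy 1.17.1 and tested on simulated data. Those data held counting error only, without variation between cultures. Also tried were DESeq2 1.42.0 size factors, total count scaling, 5 CPM added, sums over precursor lines, other abundance limits and other fold rules. Sequences are from RefSeq and hosts from GENCODE 29.

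Named were all 10 members, the other arms, neighbours and seed relatives with at least 10 counts over both libraries, and of each further list up to 3 of the most abundant above the limit. Marker microRNAs below the limit were named outside this rule, after their values were seen. hsa-miR-103a-3p and hsa-miR-107 were also named outside it, for the letters they share with the seed. The members, lists and rules were chosen with earlier results of these data known.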

Additional observations from a re-analysis of the deposited data

How the results depend on the processing

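No paired analysis was possible because the labels give 1 library a group, and none could be left out. The 0 members at least 2-fold different stayed at 0 under each alternative run, including smaller fold rules. All 40 pairs of a member and a setting (total count scaling, DESeq2 size factors, sums over precursor lines, 5 CPM added) stayed within the member's counting interval, though hsa-miR-15b-5p (0.993) turned to 1.02 under total count scaling and hsa-miR-16-2-3p (1.02) to 0.998 with DESeq2 factors. Each scaling moved all members by 1 common factor, and summing lines changed the counts of hsa-miR-16-5p alone among them. The 40 are therefore not separate checks. Total count scaling shifted log2 ratios by 0.036. The DESeq2 factors were both 1, so that setting compared unscaled counts, and it shifted log2 ratios by -0.026. The members with an interval below 1 fell from 2 to 1 under total count scaling, as hsa-miR-503-5p then included 1, while those above 1 went from 2 to 3 with hsa-miR-424-5p. At a mean of at least 1000 CPM, which keeps 2 members, there was 1 above and 1 below. The members' median log2 ratio of 0.023 lies near 0 and turned to -0.0028 with DESeq2 factors and -0.024 at 1000 CPM. The seed group's ratio of 1.12 was 1.15 under total count scaling, 1.07 with hsa-miR-503-5p and 1.02 without hsa-miR-16-5p. Summing precursor lines, which counts reads of hsa-miR-16-5p again, raised its share of the group from 71.3% to 83.2% in shELOVL5 and from 68.4% to 81.2% in shLuc, and adding hsa-miR-503-5p lowered it to 50.3% and 46.1%. Arm odds ratios and ratios of ratios do not depend on scaling and were rerun only with sums over precursor lines. That setting can change only those that use hsa-miR-16-5p, and these stayed within their intervals. Depth limits hsa-miR-195-5p, hsa-miR-497-5p and the rare 3p strands, and the single library per condition limits every comparison.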
